A study of Homo sapiens with 21 samples.

Results

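The CDK inhibitors are the proteins that hold cyclin-dependent kinases in check. Their 8 genes, CDKN1A, CDKN1B, CDKN1C, CDKN2A, CDKN2B, CDKN2C, CDKN2D and CDKN3, were taken by gene symbol from the 23368 genes of the deposited expression table, and all 8 were found and had values that varied. Expression was measured by RNA-seq in hTERT-HPNE cells, a pancreatic line that is not transformed and was immortalized with telomerase. The groups were untreated cells, cells 4, 8 or 24 h after 300 µM H2O2, which causes oxidative stress, and cells 4, 8 or 24 h after 400 ng/ml neocarzinostatin (NCS), a radiomimetic drug that generates DNA double-strand breaks. Each of the 7 groups had 3 biological replicates, 21 libraries in all, and the untreated cells were harvested at 0 h only, so that time in fresh medium and treatment cannot be told apart. All groups carried the telomerase transgene and were grown with puromycin.

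Cyclin-dependent kinases drive the cell cycle when bound to a cyclin. The CIP/KIP proteins, encoded by CDKN1A (p21), CDKN1B (p27) and CDKN1C (p57), bind cyclin-CDK complexes of several kinds, while the INK4 proteins, encoded by CDKN2A (p16), CDKN2B (p15), CDKN2C (p18) and CDKN2D (p19), bind CDK4 and CDK6 alone. CDKN3 encodes a phosphatase that removes an activating phosphate from CDKs. CDKN1A is a textbook gene of the response to DNA damage, and CDKN2A, whose locus also encodes ARF, is linked to senescence. Much of the control of p27 is by protein breakdown, which an RNA measurement does not show.

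The values are rLog values, counts that were scaled for library size and put on a log2 scale with differences shrunk, most strongly for genes with few reads, so that the folds given here are folds on a shrunken scale. They hold no counts, and the depth of each library is unknown. Library medians ran from 7.15 to 7.19. Defining markers of mesenchyme (COL1A1, mean 17.82) and of nestin-positive cells (NES, 12.03) were high, and the 6 duct markers ran from EPCAM (-1.76), CFTR (-1.34) and KRT19 (0.60) over CDH1 (3.79) to SOX9 (6.07) and KRT7 (6.93). PRSS1, CELA3A and INS were listed at 0 in every library, as was the blood marker HBB, while CD68 had a mean of 10.11. TERT was high (14.04). Replicate 2 of H2O2 at 8 h stood apart. Its distance over all varying genes was 14.7 and 15.1 log2 units from the other two, which were 11.4 from each other, while the pairs in other groups were 8.94 to 11.2 apart. It also lay nearer than the other two to the mean of every other group, for untreated cells at 23.9 against 33.5 and 33.7. Its nearest means were those of NCS at 4 h (20.4 against 27.9 and 27.3) and NCS at 8 h (20.4 against 27.4 and 27.2). Where leaving this library out changed a call of an inhibitor gene, the result is given with and without it. In bulk RNA, fewer cells of a kind and less RNA per cell cannot be told apart.

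CDKN1A rose and CDKN1B fell at every time after both agents, CDKN2B rose late, and CDKN2C and CDKN3 fell to their lowest values at 24 h. A gene was called where its q, the p-value of limma after Benjamini-Hochberg adjustment over 19694 genes, lay under 0.05. Against untreated cells, H2O2 raised 2 and lowered 3 of the 8 genes at 4 h, raised 1 and lowered 4 at 8 h, and raised 2 and lowered 5 at 24 h. Of all genes, 45.9% were called at 4 h (26.2% higher, 19.7% lower), 37.4% at 8 h (18.8% and 18.6%) and 40.0% at 24 h (20.2% and 19.9%). NCS raised 1 and lowered 4 at 4 h and again at 8 h, and raised 2 and lowered 5 at 24 h. Here 17.2% of all genes were called at 4 h (7.47% higher, 9.72% lower), 23.9% at 8 h (10.5% and 13.3%) and 38.0% at 24 h (19.6% and 18.4%). The 8 genes had a median difference of -0.01, -0.18 and -0.37 over the 3 times in H2O2, which was -0.25, -0.21 and -0.29 in NCS, while the median of all genes was 0.00 in each of the 6 comparisons. With a log2 difference over 1 asked for as well, CDKN1A alone was called in H2O2 at 4 h and 8 h and in NCS at 4 h. CDKN1A and CDKN2C were called in NCS at 8 h, and CDKN1A, CDKN2C and CDKN3 after both agents at 24 h. This stricter limit was passed by 0.696%, 0.518% and 1.61% of all genes in H2O2 and by 0.218%, 0.340% and 1.50% in NCS over the 3 times. Without H2O2 8 h replicate 2 the 8 h counts in H2O2 by q alone stayed at 1 and 4, and the differences of the genes called there were 1.77 for CDKN1A, -0.42 for CDKN1B, -1.17 for CDKN2C, -0.21 for CDKN2D and -0.59 for CDKN3. CDKN2C then passed the stricter limit as well, while its difference with all libraries was -0.99. The 6 comparisons share the untreated libraries.

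**Figure D1:**
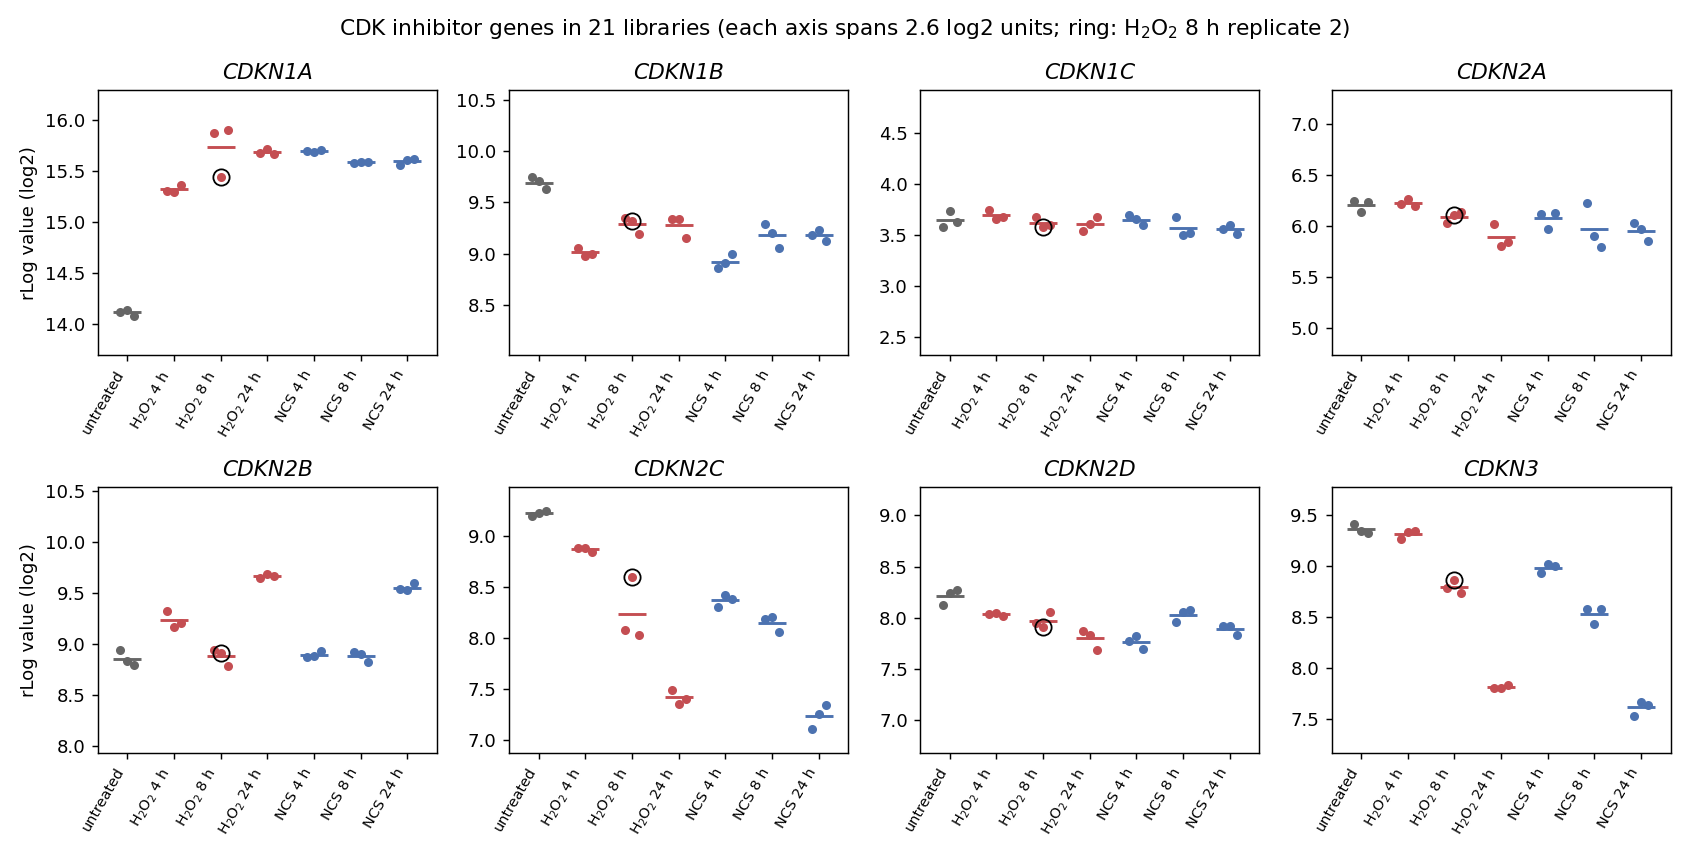
The rLog value (log2) of each of the 8 genes in every library, with a dot per library, a line at the group mean and a ring around H2O2 8 h replicate 2. CDKN1A lies above all untreated libraries in every treated one, CDKN1B lies below them, and CDKN2C and CDKN3 have their lowest values at 24 h, down to 7.10 and 7.54.

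CDKN1A had the highest level of the inhibitors per exon length, and its mean rLog value, with no regard to length, was 15.39. The 3 untreated libraries had values of 14.13, 14.14 and 14.08. After H2O2 the values were 15.31, 15.30 and 15.36 (4 h), 15.87, 15.44 and 15.91 (8 h) and 15.68, 15.72 and 15.67 (24 h). After NCS they were 15.70, 15.69 and 15.71 at 4 h, 15.59 in all 3 libraries at 8 h, and 15.56, 15.61 and 15.62 at 24 h. No treated library overlapped the untreated ones, and NCS reached its highest mean at the first time while H2O2 did so at 8 h. The rise was 1.21, 1.62 and 1.57 in H2O2 at 4, 8 and 24 h and 1.58, 1.47 and 1.48 in NCS (SE 0.07 each), or 2.31-fold to 3.08-fold, with q from limma between 3.31e-10 and 3.25e-12. Its level in H2O2 at 4 h lay below that in NCS at 4 h by 0.37 (q = 0.000438), and the gap between the agents changed by 0.53 from 4 h to 8 h (SE 0.11, q = 0.00079). Without H2O2 8 h replicate 2 this change was 0.68 (q = 1.56e-10).

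At 8 h CDKN1A depended on the library that stood apart. With all libraries the difference of H2O2 from NCS was 0.15 (95% interval -0.0049 to 0.31, q = 0.135), and without it 0.30 (SE 0.02, q = 1.69e-08). The step from 8 h to 24 h in H2O2 was -0.05 with it (q = 0.66) and -0.20 without it (q = 1.23e-06). That library also widened the SE of CDKN1A everywhere, from 0.02 to 0.07. Without it, 2 more small differences were called by limma, the excess of H2O2 over NCS at 24 h, 0.09 (q = 0.00289), and the fall in NCS from 4 h to 8 h, which was -0.11 (q = 0.00115). Among the 7 group means, only the neighbours H2O2 24 h and NCS 24 h, NCS 8 h and H2O2 4 h, and H2O2 4 h and untreated were separated in every library.

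CDKN1B, the gene of p27, was lower after both agents. Its values were 9.75, 9.71 and 9.63 in untreated cells and fell to 9.06, 8.98 and 8.9998 in H2O2 and 8.86, 8.91 and 8.99 in NCS at 4 h. At 8 h they were 9.35, 9.32 and 9.19 in H2O2 and 9.29, 9.20 and 9.05 in NCS. At 24 h they were 9.33, 9.34 and 9.15 in H2O2 and 9.18, 9.23 and 9.12 in NCS. The lowest values came first, and no treated library reached an untreated one. The 4 h difference was -0.68 in H2O2 (SE 0.06, q = 4.76e-08) and -0.78 in NCS (SE 0.06, q = 4.5e-08), a fall of 1.61-fold and 1.71-fold. From 4 h to 8 h it then rose by 0.28 in H2O2 (q = 0.00106) and by 0.26 in NCS (q = 0.00635). The difference from untreated cells at 24 h was still -0.42 in H2O2 and -0.52 in NCS. Between the agents the libraries overlapped at all 3 times, with differences of 0.09, 0.11 and 0.10 and 95% intervals that together ran from -0.04 to 0.24.

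CDKN1C was low, between 3.50 and 3.75 in all 21 libraries, and was not called in any of the 13 comparisons of 2 groups. Its differences from untreated cells lay between -0.09 and 0.05, with 95% intervals that together ran from -0.21 to 0.16. Every group overlapped its neighbour in the order of the means. At such a low value the shrinkage of the rLog scale is strong, and a change in few reads would show as little.

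The promoters of CDKN1A and CDKN2B, the inhibitor genes that rose, are shown with the motifs searched for in capitals. They are the RefSeq windows from 250 bases before to 50 bases from the start in GRCh38.p14, and 7 of the 8 genes were matched there, with 10 start sites. Both strands were searched for the GC box GGGCGG and for the CCAAT box, which was CCAAT itself. The cell cycle homology region (CHR) was TTTGAA in its first form and TTCGAA in its second form, and the TATA box was TATAAA in its first form and TATATA in its second form. The E2F site was TTGGCGC in its first form, TTCCCGC in its second form, TTGCCGC in its other form and TTCGCGC in its last form. Of 35116 promoters of this length, 44.95% held a GC box, 34.61% a CCAAT box, 16.35% a CHR, 12.97% an E2F site and 13.67% a TATA box. The window of CDKN1A is chr6:36678464-36678763 on the + strand and that of CDKN2B is chr9:22009256-22009555 on the - strand.
CDKN1A: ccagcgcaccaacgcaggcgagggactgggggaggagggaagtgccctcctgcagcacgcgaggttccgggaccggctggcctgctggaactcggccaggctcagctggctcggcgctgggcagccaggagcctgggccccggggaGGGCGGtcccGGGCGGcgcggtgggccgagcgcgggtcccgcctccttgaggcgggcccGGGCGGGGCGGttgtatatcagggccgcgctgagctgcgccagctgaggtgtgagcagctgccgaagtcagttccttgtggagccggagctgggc
CDKN2B: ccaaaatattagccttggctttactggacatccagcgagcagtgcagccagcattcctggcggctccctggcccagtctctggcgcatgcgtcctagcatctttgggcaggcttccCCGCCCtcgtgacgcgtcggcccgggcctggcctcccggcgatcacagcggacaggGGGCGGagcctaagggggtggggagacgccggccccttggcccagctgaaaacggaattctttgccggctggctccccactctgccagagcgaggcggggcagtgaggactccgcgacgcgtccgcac
The letters searched for gave 4 GC boxes in the CDKN1A window, at -104, -94, -45 and -40 from the start, and 2 in that of CDKN2B, at -134 and -78. None of the other motifs was found in these windows.

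CDKN2B, the gene of p15, had a time course of its own after each agent. Untreated libraries had values of 8.94, 8.83 and 8.80. In H2O2 they were 9.33, 9.17 and 9.21 (4 h), 8.94, 8.92 and 8.79 (8 h) and 9.65, 9.69 and 9.67 (24 h). In NCS they were 8.87, 8.88 and 8.94 (4 h), 8.93, 8.91 and 8.83 (8 h) and 9.54, 9.53 and 9.60 (24 h). H2O2 libraries thus lay above the untreated ones at 4 h, overlapped them at 8 h and lay above them again at 24 h, while NCS libraries were clear of them at 24 h only. The differences in H2O2 were 0.38 at 4 h (SE 0.05, q = 2.4e-06), 0.02 at 8 h (q = 0.776) and 0.81 at 24 h (q = 4.96e-11), the last a rise of 1.76-fold. In NCS they were 0.04 (q = 0.709), 0.03 (q = 0.812) and 0.70 (SE 0.05, q = 5e-10). At 4 h CDKN2B exceeded its NCS level in H2O2 by 0.34 (q = 9.59e-06), and this gap was smaller at 8 h by 0.34 (q = 0.000574) and at 24 h by 0.22 (q = 0.0119). Between 8 h and 24 h its gain was 0.79 after H2O2 and 0.67 after NCS, the only called rises of an inhibitor gene in those 2 steps. Without H2O2 8 h replicate 2 these steps and gaps kept their calls, with an 8 h difference from untreated cells of 0.01.

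The antisense gene CDKN2B-AS1 spans CDKN2B on the other strand in GENCODE v29, and it also overlaps the start of CDKN2A. The library kit marks strand, but the setting used for counting is not given in the sources used here. Reads may therefore have been shared between CDKN2B-AS1 and either gene. CDKN2B-AS1 was much lower than CDKN2B, with a mean of 4.48 in untreated cells. It differed by 0.18 in H2O2 at 4 h (q = 0.00987) and by -0.15 at 24 h (q = 0.0326), where CDKN2B was at its highest, and by -0.12 in NCS at 24 h (q = 0.11).

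CDKN2A, counted as 1 gene for both p16 and ARF, lay between 5.79 and 6.27 over all libraries. It fell at 24 h, by 0.32 in H2O2 (SE 0.09, q = 0.00588) and by 0.25 in NCS (q = 0.0252), and was not called at 4 or 8 h. The 24 h libraries were 6.02, 5.80 and 5.85 in H2O2 and 6.03, 5.97 and 5.85 in NCS, below the untreated range of 6.13 to 6.25. The NCS call at 24 h was lost without any 1 of 3 libraries, untreated replicate 1 or 3 or NCS 24 h replicate 3, with an q of up to 0.116. At 8 h NCS replicate 1, at 6.22, lay within the untreated range and the other two, at 5.90 and 5.79, below it, and the difference was -0.23 with it (q = 0.0595) and -0.36 without it (q = 0.00128). No 2 neighbouring groups were separated in every library.

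CDKN2C, the gene of p18, changed most over the libraries, with a range of 2.14. Its values were 9.19, 9.22 and 9.25 in untreated cells, 8.88, 8.88 and 8.84 in H2O2 at 4 h and 8.30, 8.42 and 8.37 in NCS at 4 h. At 8 h they were 8.08, 8.60 and 8.03 in H2O2 and 8.18, 8.20 and 8.05 in NCS. At 24 h they were 7.49, 7.35 and 7.40 in H2O2 and 7.10, 7.25 and 7.34 in NCS. All treated libraries lay below all untreated ones. The differences of CDKN2C were -0.35, -0.99 and -1.80 in H2O2 and -0.85, -1.07 and -1.99 in NCS (SE 0.10 each), a fall of 3.49-fold and 3.96-fold at 24 h, with q at 24 h of 4.3e-11 and 1.14e-11. The fall came sooner after NCS, and at 4 h the level in H2O2 was higher by 0.50 (q = 0.000531). At 8 h the gap was 0.09 (q = 0.582), and without H2O2 8 h replicate 2 it was -0.09 (q = 0.274). The change of the gap from 4 h to 8 h was -0.41 with this library (q = 0.0347) and -0.60 without it (q = 2.05e-05). This call was lost without any 1 of 8 other libraries (q from 0.0564 to 0.102), without the mean-variance trend (q = 0.0515) and when only the compared groups were fitted (q = 0.0936). At 24 h the gap was 0.18, not called with H2O2 8 h replicate 2 (q = 0.249) but called without it (q = 0.02). The step of CDKN2C in NCS from 4 h to 8 h was -0.22, not called with this library (q = 0.194) but called without it (q = 0.00899).

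CDKN2D, the gene of p19, was lower by smaller amounts and in another order. Its values were 8.13 to 8.27 in untreated cells, and the 6 treated groups had means between 7.76, in NCS at 4 h, and 8.03, in H2O2 at 4 h. All 6 differences were called, at -0.18, -0.24 and -0.42 in H2O2 and -0.45, -0.18 and -0.32 in NCS at 4, 8 and 24 h (SE 0.05, q between 3.6e-06 and 0.0168). In NCS the deepest fall was at 4 h, and a rise of 0.27 to 8 h followed (q = 0.00196). In H2O2 the deepest fall was at 24 h, with a step of -0.17 from 8 h (q = 0.0133). Calls of the smallest differences were lost without single libraries, for H2O2 at 4 h without untreated replicate 3 (-0.15, q = 0.0533) and for NCS at 8 h without NCS 8 h replicate 1 (-0.15, q = 0.0899), untreated replicate 2 (-0.17, q = 0.0626) or untreated replicate 3 (-0.16, q = 0.0787). The step in H2O2 from 8 h to 24 h was lost without H2O2 8 h replicate 3 (-0.13, q = 0.0812) or H2O2 24 h replicate 3 (-0.12, q = 0.0955).

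CDKN3, the phosphatase, moved in steps. Its values were 9.41, 9.34 and 9.33 in untreated cells and 9.26, 9.33 and 9.35 in H2O2 at 4 h, which overlapped, but 8.93, 9.03 and 8.9985 in NCS at 4 h. At 8 h they were 8.79, 8.86 and 8.74 in H2O2 and 8.59, 8.44 and 8.59 in NCS. At 24 h they were 7.81, 7.80 and 7.84 in H2O2 and 7.54, 7.67 and 7.64 in NCS. Apart from the pair of untreated and H2O2 4 h, all neighbours in the order of the group means were separated in every library. The differences in H2O2 were -0.05 at 4 h (q = 0.466), -0.56 at 8 h and -1.54 at 24 h, and those in NCS were -0.37, -0.82 and -1.74 (SE 0.05 each), 2.91-fold and 3.35-fold lower at 24 h. With all libraries CDKN3 was the only inhibitor gene called between the agents at all 3 times. It was higher in H2O2 by 0.33 at 4 h (q = 1.01e-05), 0.26 at 8 h (q = 0.000179) and 0.20 at 24 h (q = 0.0031), and by 0.23 at 8 h without H2O2 8 h replicate 2 (q = 0.00118). Without that library CDKN1A was called at all 3 times as well.

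**Figure D2:**
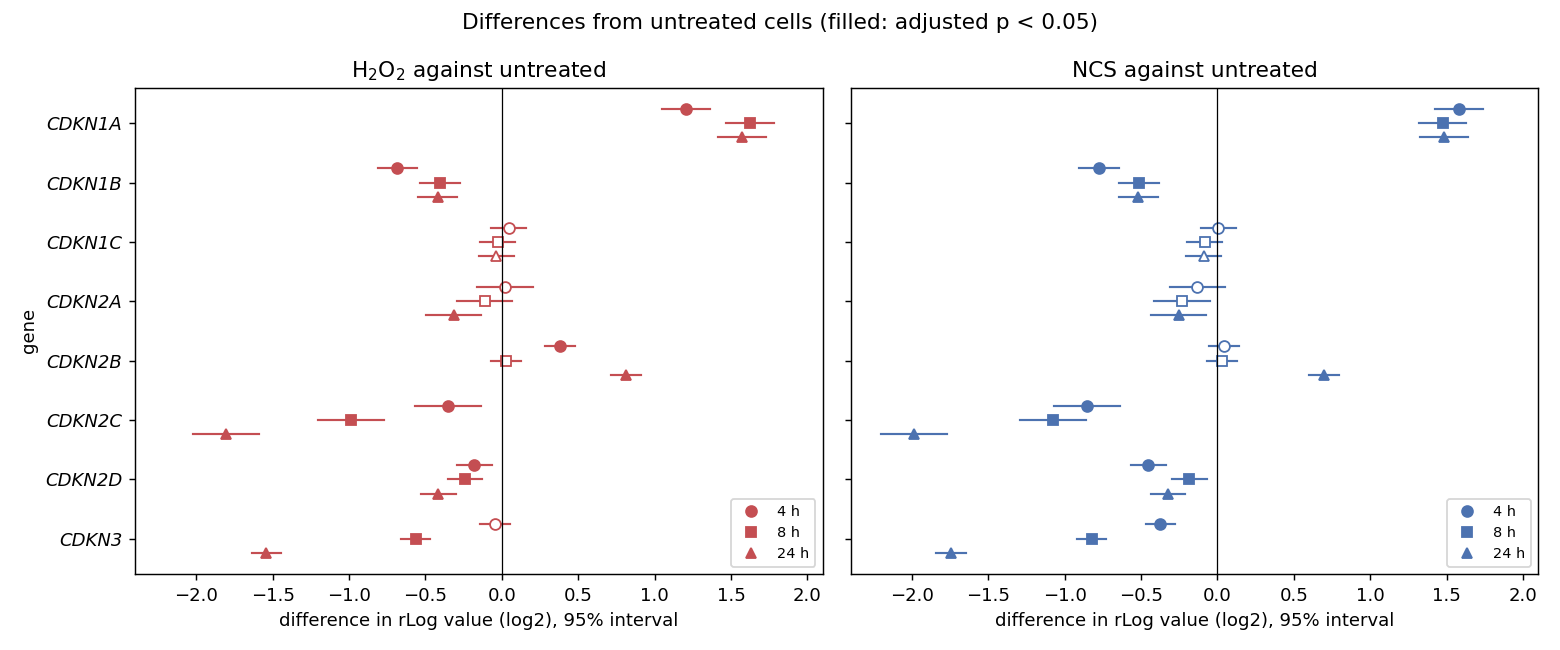
Differences of each treated group from untreated cells in rLog value (log2, horizontal axis) for the 8 genes (vertical axis), with H2O2 on the left, NCS on the right, 95% intervals as bars, and filled marks where q was under 0.05. CDKN1A stands to the right of 0 at all times and CDKN2C to the left, reaching -1.80 and -1.99 at 24 h.

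The promoters of CDKN2C and CDKN3, the inhibitor genes that fell furthest, are shown for comparison, with motif matches in capitals as before. CDKN2C has 3 start sites in the table, and the window printed is that of the second, chr1:50968456-50968755 on the + strand. The window of CDKN3 is chr14:54396757-54397056 on the + strand.
CDKN2C: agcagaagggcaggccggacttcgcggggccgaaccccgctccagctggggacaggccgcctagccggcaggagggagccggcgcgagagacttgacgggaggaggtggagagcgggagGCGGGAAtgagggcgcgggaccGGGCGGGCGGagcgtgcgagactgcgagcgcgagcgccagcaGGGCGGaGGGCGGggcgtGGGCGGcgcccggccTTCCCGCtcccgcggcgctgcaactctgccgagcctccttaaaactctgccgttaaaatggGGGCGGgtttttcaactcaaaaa
CDKN3: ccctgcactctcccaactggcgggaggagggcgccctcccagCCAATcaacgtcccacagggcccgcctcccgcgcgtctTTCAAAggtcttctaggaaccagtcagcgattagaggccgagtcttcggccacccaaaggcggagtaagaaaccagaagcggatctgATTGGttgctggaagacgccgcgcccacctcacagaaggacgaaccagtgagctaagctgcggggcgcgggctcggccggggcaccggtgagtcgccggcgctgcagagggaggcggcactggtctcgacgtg
The CDKN2C window held 2 E2F sites, at -131 and -34, and 6 GC boxes, some of which overlap. The CDKN3 window held 2 CCAAT boxes, at -208 and -83, and 1 CHR, at -170, and no GC box or E2F site by these letters. The other start sites of CDKN2C held no E2F site, and its start site 3 held 1 CCAAT box and 1 GC box. Among windows not printed, that of CDKN1B held 3 CCAAT boxes and 1 GC box. The window of CDKN2D held 1 CCAAT box and 3 GC boxes. CDKN2A, which fell at 24 h, had 2 GC boxes at its start site 2 and none of the other motifs there. A match is a match of letters and not evidence of binding.

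Between the agents, more inhibitor genes were called at 4 h than later, as was so for all genes. H2O2 was higher than NCS for CDKN2B, CDKN2C, CDKN2D and CDKN3 and lower for CDKN1A, 5 of 8 genes, where 44.4% of all genes were called. At 8 h and at 24 h CDKN3 alone was called, where 34.1% and 21.9% of all genes were. Without H2O2 8 h replicate 2, CDKN1A was called as well at 8 h, and CDKN1A and CDKN2C at 24 h, 2 and 3 genes in all. The gap between the agents changed from 4 h to 8 h for CDKN1A, CDKN2B, CDKN2D and, less firmly as given above, CDKN2C (32.7% of all genes called) and from 4 h to 24 h for CDKN1A, CDKN2B and CDKN2D (39.4%). For CDKN2C the change to 24 h was -0.32, not called with all libraries (q = 0.0888). It was called without H2O2 8 h replicate 2 (q = 0.00282), with library medians aligned (q = 0.0148) and under quantile normalization (q = 0.0334). Calls also came among genes with a mean of at least 5 (q = 0.0342) and in a fit of only the compared groups (q = 0.00842). In these changes CDKN1A gained in H2O2 relative to NCS, while CDKN2B, CDKN2C and CDKN2D lost. CDKN2D was higher in H2O2 by 0.27 at 4 h (q = 0.000405), and its gap was smaller by 0.33 at 8 h (q = 0.00243) and by 0.36 at 24 h (q = 0.000868). From 4 h to 8 h 5 inhibitor genes were called in H2O2 and 3 in NCS, where 45.7% and 13.7% of all genes were, and from 8 h to 24 h 4 and 3, where 42.6% and 29.9% were.

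**Figure D3:**
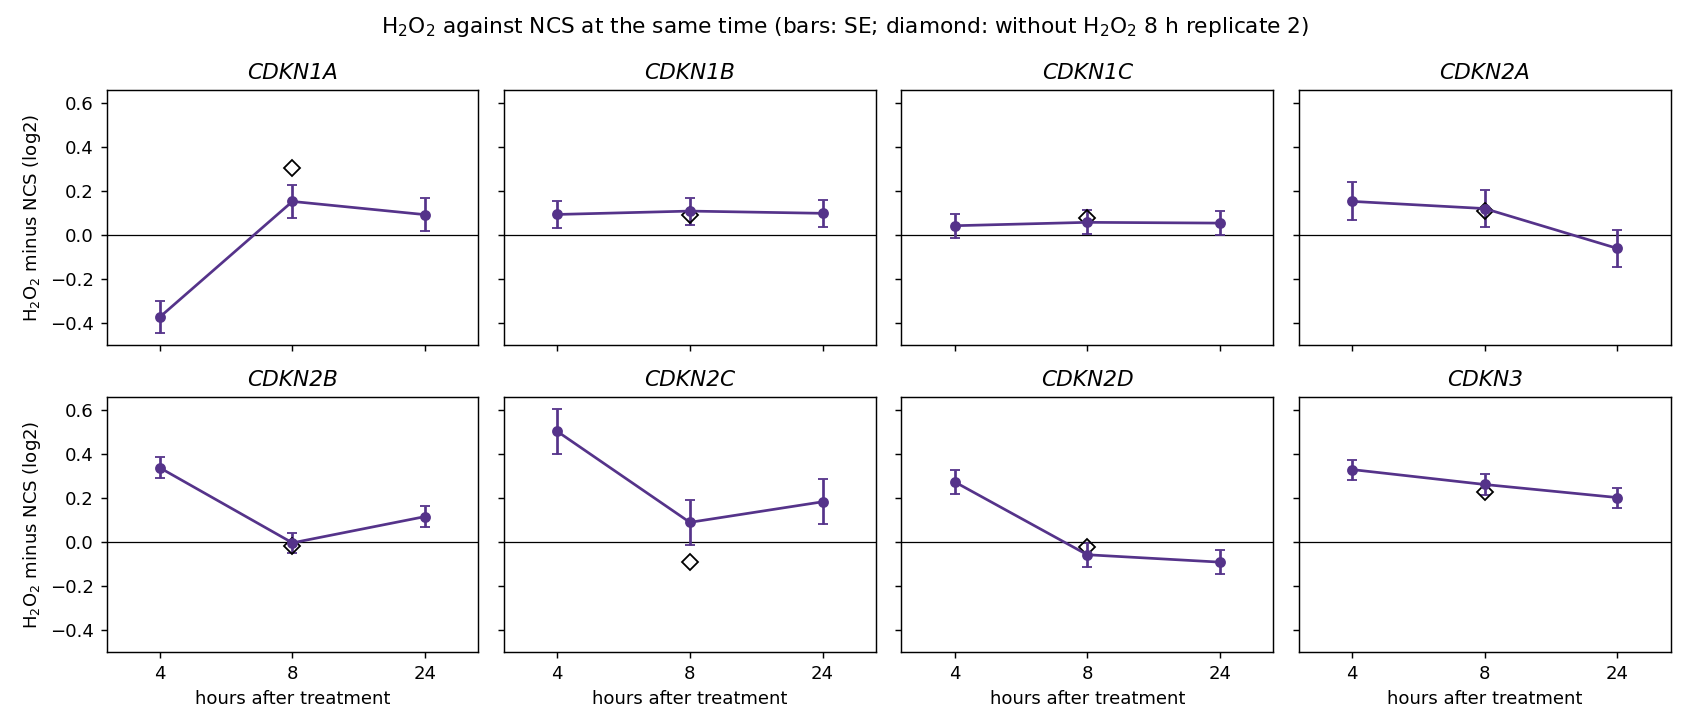
The difference of H2O2 from NCS at the same time (log2, vertical axis) against hours after treatment (not to scale), with bars for the SE and a diamond for the 8 h value without H2O2 8 h replicate 2. CDKN1A goes from -0.37 at 4 h to 0.15 at 8 h, and to 0.30 without that library, while CDKN2B, CDKN2C and CDKN2D start above 0 and come down.

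Per length of exon, the order of the levels in untreated cells could be compared between genes. With log2 of the exon length in kb in GENCODE v29 subtracted, CDKN1A had an rLog level of 12.79, CDKN3 8.66, CDKN1B 8.28, CDKN2D 7.62, CDKN2C 7.49, CDKN2B 6.85, CDKN2A 4.55 and CDKN1C 2.69, with SDs over 3 libraries between 0.03 and 0.08. The exon lengths are those of all exons in that annotation and not of the transcripts used. CDKN2A and CDKN2B lie side by side on chromosome 9, in GRCh38 at chr9:21967753-21995301 and chr9:22002903-22009363, both on the - strand. At 24 h, after either agent, CDKN2A had fallen and CDKN2B risen.

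Across the 21 libraries CDKN2C and CDKN3 varied together (Pearson's r = 0.965). This and the following correlations are descriptions, since the libraries come in 7 groups and share their scaling. CDKN1A ran against CDKN1B (r = -0.728), CDKN2C (-0.698) and CDKN2D (-0.724). CDKN1B had little in common with CDKN3 (0.104). Among the 11680 other genes with a mean of at least 5, the 4 most like CDKN1A by r were PLK3 (0.964), SESN1 (0.964), TNFRSF10B (0.960) and BTG2 (0.959). The 5 most like CDKN1B were SIX4 (0.908), CNKSR3, BRD8, TBL1XR1 and HYLS1, and those most like CDKN2B were C5orf41 (0.951), WBP2, CPNE7, TRNP1 and C5orf4. For CDKN2C they were RACGAP1 (0.993), NUF2, KIF23, CCNA2 and BUB1B, and for CDKN3 BIRC5 (0.994), FAM64A, PRC1, PTTG1 and EZH2. The likeness was weaker for CDKN2D (FAM72A, 0.832), CDKN2A (PITPNB, 0.813) and CDKN1C (TRIM56, 0.717).

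Markers of cycling cells moved with these genes. The mean rLog value of 10 markers, MKI67 and TOP2A among them, was 11.64 to 11.72 in untreated cells, 11.13 to 11.24, 10.40 to 10.91 and 9.60 to 9.75 in H2O2 at 4, 8 and 24 h, and 10.60 to 10.65, 10.26 to 10.32 and 9.30 to 9.39 in NCS. All 10 markers were called lower in each treated group except H2O2 at 4 h, where 9 were, BIRC5 being the exception. CDKN2C followed this mean with r = 0.992 and CDKN3 with r = 0.964 over the 21 libraries, CDKN2A with 0.732, CDKN2D with 0.641 and CDKN1B with 0.308. For CDKN1A r was -0.712 and for CDKN2B -0.691. The part of cell cycle distribution in the values of the inhibitor genes was not tested. Replicate 2 of H2O2 at 8 h had the highest marker mean of its group, 10.91 against 10.40 and 10.49, the highest CDKN2C and the lowest CDKN1A.

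**Figure D4:**
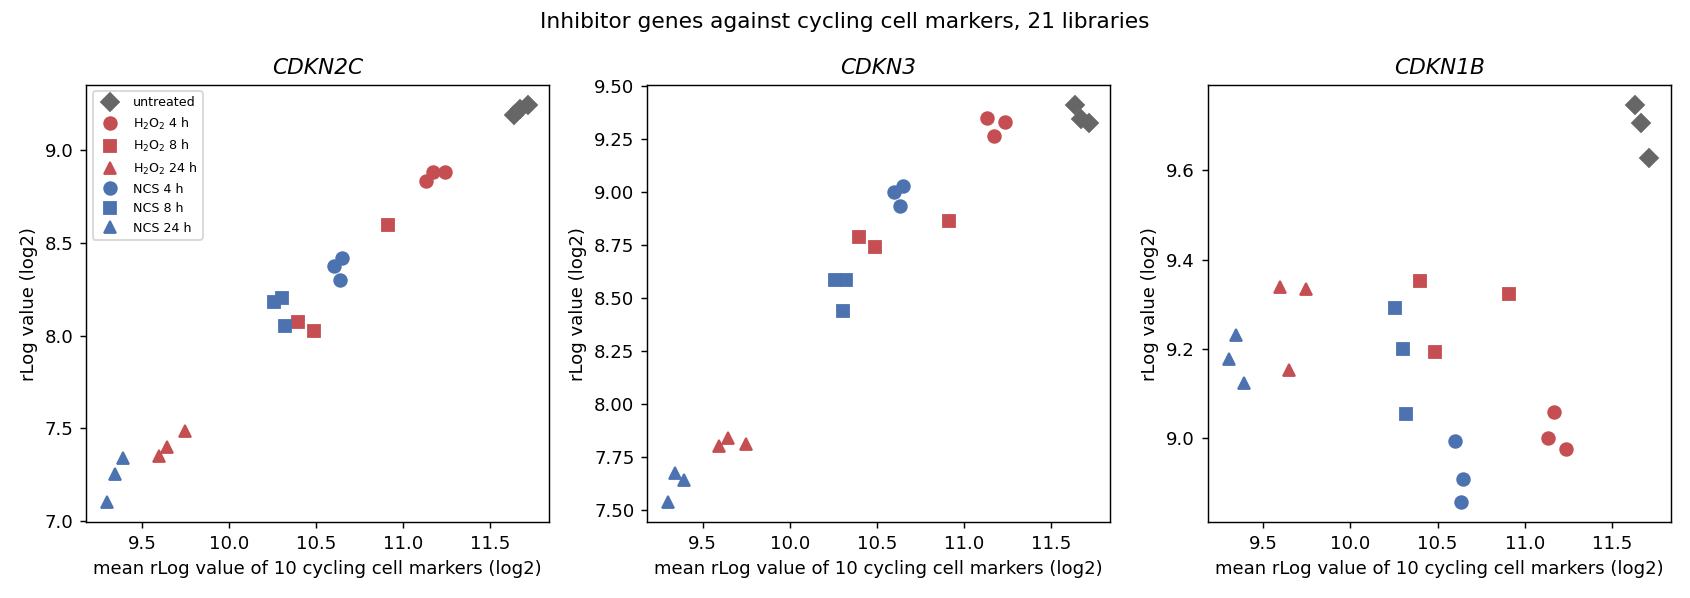
The rLog values (log2) of CDKN2C, CDKN3 and CDKN1B against the mean rLog value of 10 cycling cell markers, with a mark for each of 21 libraries, colored by agent and shaped by time. CDKN2C (r = 0.992) and CDKN3 (r = 0.964) rise with the markers, while CDKN1B (r = 0.308) has its lowest values at 4 h, at an intermediate marker level.

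A list of 18 genes of the pathway in which the inhibitors act held CDKs, cyclins, RB-E2F genes, CDC25A and PCNA. Of these, H2O2 raised 2 and lowered 9 at 4 h, raised 4 and lowered 13 at 8 h, and raised 2 and lowered 14 at 24 h, with median differences of -0.10, -0.32 and -0.87, and the 8 h counts were 4 and 13 also without replicate 2. Of all genes, 45.9%, 37.4% and 40.0% were called in these comparisons. NCS raised 1 and lowered 7, raised 4 and lowered 13, and raised 3 and lowered 14, with medians of -0.02, -0.36 and -0.89, where 17.2%, 23.9% and 38.0% of all genes were called. Among the partners of the INK4 proteins, CDK4 was lower at 24 h, by -0.40 in H2O2 and -0.65 in NCS, while CDK6 was 0.10 above untreated cells in H2O2 (q = 0.0661) and 0.11 in NCS (q = 0.0371). Of the D cyclins that activate these kinases, CCND1 was higher by 0.28 and 0.30 at 24 h. At 8 h CCND2 rose by 1.11 in H2O2 (SE 0.09, q = 1.14e-08) and by 0.32 in NCS (q = 0.00997), a gap of 0.79 between the agents (q = 1.06e-06). H2O2 8 h replicate 2 had a CCND2 value of 10.14, against 10.57 and 10.52 in the others of its group. By 24 h the CCND2 mean was 10.36 in H2O2 and 10.15 in NCS, against 9.30 in untreated cells. CCND3 differed by -0.09 in H2O2 (q = 0.0387) and by -0.06 in NCS (q = 0.217) at 24 h.

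Among the genes whose products the CIP/KIP proteins bind, CDK2 was lower by -1.17 and -1.13 at 24 h in H2O2 and NCS, its partners CCNE1 by -0.56 and -0.59 and CCNE2 by -1.88 in both, and CCNA2 by -2.14 and -2.46, the deepest in the list. The mitotic kinase CDK1 was lower by -1.59 and -1.79 and its activator CCNB1 by -1.75 and -1.92. At 4 h CCNE2 was lower in H2O2 (-0.16, q = 0.0157) with a value of 0.13 in NCS (q = 0.104), and at 8 h the differences were -0.40 and -0.95, a gap of 0.55 (q = 2.46e-07). PCNA, which p21 also binds, was higher at 4 h, by 0.34 and 0.55, and lower at 24 h, by -0.38 and -0.40. E2F1, which RB1 restrains, was lower by -1.44 and -1.45 at 24 h and not called at 4 h after either agent.

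**Figure D5:**
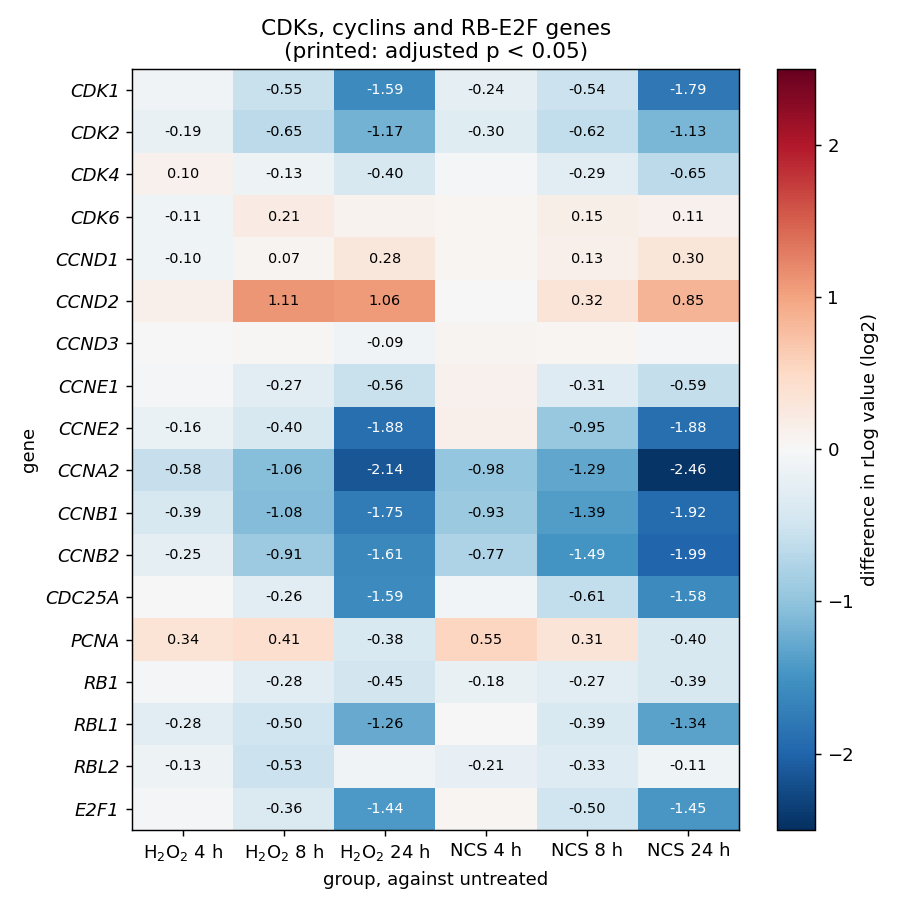
Differences from untreated cells in rLog value (log2, color) for 18 genes (CDKs, cyclins, RB-E2F genes, CDC25A and PCNA) in 6 treated groups, with the value printed where q was under 0.05. Most rows turn blue towards 24 h, with CCNA2 at -2.14 and -2.46, while CCND1 and CCND2 are red at 24 h.

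Genes known to act on the inhibitors formed a list of 16, of which H2O2 raised 3 and lowered 6 at 4 h, raised 5 and lowered 8 at 8 h (6 and 8 without replicate 2), and raised 1 and lowered 8 at 24 h. NCS raised 1 and lowered 5, raised 2 and lowered 8, and raised 1 and lowered 10, and the median difference of the list lay between -0.30 and 0.01 over the 6 comparisons. These counts stand beside 45.9%, 37.4% and 40.0% of all genes in H2O2 and 17.2%, 23.9% and 38.0% in NCS. SKP2 and CKS1B, which mark p27 for breakdown, were lower at 24 h by -0.74 and -0.89 in H2O2 and by -0.74 and -0.996 in NCS, and SKP2 was already lower at 4 h in H2O2, by -0.63, against -0.08 in NCS (gap -0.55, q = 1.14e-08). DTL, which targets p21 for breakdown, was lower by -1.47 and -1.74 at 24 h. FOXO3, an activator of CDKN1B, was higher at 8 h by 0.26 in H2O2 (q = 5.09e-07) and 0.08 in NCS (q = 0.0405). FOXO4 of the same family was lower at 8 h in H2O2 (-0.17, q = 0.0299) with a value of -0.02 in NCS (q = 0.962). At 24 h the FOXO4 libraries lay above the untreated range of 6.37 to 6.54. They ran from 6.56 to 6.72 in H2O2 and from 6.79 to 6.85 in NCS. ETS1 and ETS2, activators of CDKN2A, were higher in H2O2 at 4 h by 0.65 and 0.77, against -0.09 and -0.03 in NCS (gaps 0.74 and 0.80, q = 9.71e-14 and 5.01e-11). At 24 h ETS1 was lower in H2O2 (-0.26, q = 3.37e-08) and NCS (-0.50, q = 3.27e-12), and ETS2 was lower in NCS (-0.32, q = 4.28e-06) with a value of -0.08 in H2O2 (q = 0.172). MYC, a repressor of CDKN1A and CDKN2B, differed from untreated cells by 0.21 in H2O2 at 4 h and by -0.36 in NCS (gap 0.58, q = 2.38e-10). EZH2, of the Polycomb complex that silences the CDKN2A locus, was lower at 24 h by -1.46 and -1.62. CBX7, of the other Polycomb complex, was lower in H2O2 at 8 h by -0.56 (q = 3.41e-06). At 24 h CBX7 had means of 7.05 in H2O2 and 7.07 in NCS, against 7.12 in untreated cells.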

How the data were processed

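RNA from 21 hTERT-HPNE libraries was measured by RNA-seq with a stranded mRNA kit. Per the submitters' processing notes the tools were HISAT2, HTSeq and DESeq2, with hg19 named as the build. The values deposited by the authors are rLog values on a log2 scale. The annotation and the strand setting are not given in the sources used here. Of 23368 genes, 3674 at 0 in every library were left out. No column was unmatched to a sample.

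Groups were compared with limma 3.58.1 (R 4.3.3) in a joint fit of all 7 groups and with the variance trend of eBayes, tested on simulated data. There were 13 comparisons of 2 groups and 2 of the gap between the agents over time, with Benjamini-Hochberg adjustment over 19694 genes. A two-sided exact permutation test of 3 libraries against 3 cannot go below p = 0.1. Named are all 8 genes, some of the listed genes with large differences, others of both lists with a known role, chosen after their values were seen, up to 5 genes most like each member, and neighbours in the genome. Not all listed genes with large differences are named, CCNB2, CDC25A and RBL1 being left out. The members and lists were chosen with earlier results of these data known. Promoters came from RefSeq (GRCh38.p14), lengths from GENCODE release 29. Figures used Python 3.11.15 and matplotlib 3.10.9. Alternatives were library medians aligned, quantile normalization, a mean of at least 5, no trend, only the groups compared, a replicate block, a log2 limit of 1, and each library left out in turn. Values of 1 gene of the regulator list, which its counts include, are not reported here.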

Additional observations from a re-analysis of the deposited data

Results flagged for a closer look

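The difference between H2O2 and NCS changed with time for 4 of the inhibitor genes, by the interaction terms of the limma fit (q, the p-value after Benjamini-Hochberg adjustment over all genes). For CDKN1A the difference rose by 0.5256 from 4 h to 8 h (SE 0.1051, q = 0.00079) and by 0.4656 from 4 h to 24 h (SE 0.1051, q = 0.00169). For CDKN2B the changes were -0.3414 (SE 0.0658, q = 0.000574) and -0.2219 (SE 0.0658, q = 0.0119). For CDKN2C the change from 4 h to 8 h was -0.4136 (SE 0.1441, q = 0.0347). For CDKN2D the changes were -0.3313 (SE 0.0761, q = 0.00243) and -0.3649 (SE 0.0761, q = 0.000868). Of these 7 values, that of CDKN2C was the least firm, since its q was 0.0515 without the mean-variance trend, 0.0936 when only the compared groups were fitted, and between 2.05e-05 and 0.102 with single libraries left out.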

How the results depend on the processing

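Of 120 differences of the inhibitor genes, 108 kept direction and call with library medians aligned, 102 under quantile normalization, 119 without the mean-variance trend, 112 in a fit of only the groups compared, and 100 of 105 with a mean of at least 5. With group means removed, same-numbered libraries of different groups had a mean correlation of 0.0274 over 63 pairs, 12 of them over 0.1. Libraries with different numbers had a mean of -0.0137 over 126 pairs, 7 of them over 0.1. Whether the replicate numbers pair the libraries was not tested. The replicate block kept 118 of 120 and added calls of CDKN2A by limma in NCS at 8 h (-0.23, q, the adjusted p-value, = 0.0432) and in H2O2 from 8 h to 24 h (-0.20, q = 0.0495). Calls lost under these alternatives were that of CDKN2C in the change of the gap from 4 h to 8 h without the trend (q = 0.0515) and in a fit of only the groups compared (q = 0.0936), and those of CDKN2D in H2O2 at 4 h under quantile normalization (q = 0.0924), and in NCS at 8 h (0.0581) and H2O2 from 8 h to 24 h (0.085) in a fit of only the groups compared. By Spearman's rho 1 to 3 of the 5 genes most like each inhibitor gene were shared with Pearson's r. No counts or depths could be used, and low genes such as CDKN1C are limited by the shrinkage.

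With a log2 difference over 1 as well, inhibitor genes called numbered 1, 1 and 3 in H2O2 and 1, 2 and 3 in NCS at 4, 8 and 24 h, and 0 between H2O2 and NCS and in the 4 time steps. Without H2O2 8 h replicate 2 CDKN2C passed this limit in H2O2 at 8 h too (-1.17). Of all 19694 genes, 113, 32 and 3 passed it between the agents at 4, 8 and 24 h. In the steps to 8 h and to 24 h 41 and 82 passed it in H2O2, and 3 and 73 in NCS. Between H2O2 and NCS at 8 h 3 were called with medians aligned and 2 with a mean of at least 5, and at 24 h 3 in a fit of only these groups, against 1 in each case. In NCS from 4 h to 8 h 5 were called in a fit of only these groups, against 3, and in the change of the gap from 4 h to 24 h 5 under quantile normalization, against 3. The cause was not tested, and shares of all genes under these alternatives were not taken. With single libraries left out, H2O2 against NCS gave 1 to 2 at 8 h, with 2 without H2O2 8 h replicate 2 or NCS 8 h replicate 1. It gave 1 to 3 at 24 h and NCS from 4 h to 8 h gave 3 to 5, with the highest counts without H2O2 8 h replicate 2, whose removal from every comparison was chosen after seeing the data. The genes called from the list of 18 CDK pathway genes were 7 to 11 in H2O2 at 4 h, with 7 without untreated replicate 1. They were 2 to 6 between the agents at 24 h, with 2 without H2O2 24 h replicate 1.

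Signs turned for differences that were called neither in the fit reported nor in the alternative. Under quantile normalization, CDKN1A was 0.1077 in H2O2 from 8 h to 24 h. CDKN1B was 0.0053 in H2O2 and 0.0509 in NCS from 8 h to 24 h, and its gap changed by -0.0233 to 8 h and -0.0689 to 24 h. CDKN1C was -0.112 in H2O2 at 4 h, -0.0047 in NCS at 4 h, -0.1073 between them, 0.0293 in H2O2 from 4 h to 8 h and 0.0234 from 8 h to 24 h. CDKN2A was -0.0608 in H2O2 at 4 h, with a change of the gap to 8 h of 0.0218, and CDKN3 was 0.0092 in H2O2 at 4 h. With medians aligned, CDKN1B was 0.0264 in NCS from 8 h to 24 h, with a change of the gap to 24 h of -0.0186. CDKN1C was -0.0085 in NCS at 4 h and 0.0218 from 8 h to 24 h, with a change of the gap to 24 h of -0.0117. CDKN2A was 0.0088 in NCS from 8 h to 24 h, and CDKN2B 0.0174 between the agents at 8 h.

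With single libraries left out, the step from 8 h to 24 h ranged in H2O2 from -0.2008 to 0.0327 for CDKN1A, from -0.0621 to 0.047 for CDKN1B and from -0.0476 to 0.0234 for CDKN1C. In NCS it ranged from -0.0028 to 0.0286 for CDKN1A, from -0.0675 to 0.0505 for CDKN1B, from -0.0429 to 0.0462 for CDKN1C and from -0.1103 to 0.103 for CDKN2A. The change of the gap to 8 h ranged from -0.0483 to 0.0698 for CDKN1B, from -0.0189 to 0.0702 for CDKN1C and from -0.1214 to 0.0919 for CDKN2A, and that to 24 h from -0.0321 to 0.0663 for CDKN1B and from -0.0235 to 0.0475 for CDKN1C. Against untreated cells, CDKN1C ranged from -0.0581 to 0.0177 in H2O2 at 8 h, from -0.073 to 0.0057 at 24 h and from -0.0282 to 0.0476 in NCS at 4 h, and CDKN2A from -0.0145 to 0.043 in H2O2 at 4 h. CDKN2B ranged from -0.0057 to 0.0704 in H2O2 and from -0.0016 to 0.0712 in NCS at 8 h, from -0.0337 to 0.0415 between them, and from -0.0329 to 0.0171 in NCS from 4 h to 8 h. CDKN2C ranged from -0.0932 to 0.1925 between the agents at 8 h.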

Other observations

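Neighbours of the inhibitor genes changed as well, MTAP at 24 h in the same direction as CDKN2A. MTAP, beside CDKN2A on chromosome 9, was lower than in untreated cells at 24 h, by -0.26 in H2O2 (q, the adjusted p-value from limma, = 2.12e-07) and -0.41 in NCS (q = 3.08e-10). At 4 h it was lower in H2O2 by -0.20 (q = 8.11e-06), with a value of 0.02 in NCS (q = 0.878). KCNQ1OT1, the antisense RNA of the imprinted region that holds CDKN1C, rose 4 h after H2O2, by 0.72 (SE 0.06, q = 3.35e-08), while NCS gave 0.03 (q = 0.922), a gap of 0.69 (q = 5.85e-08). At 24 h its differences from untreated cells were -0.16 in H2O2 (q = 0.0511) and -0.19 in NCS (q = 0.0201). CDKN1C itself differed by 0.05 in H2O2 at 4 h (q = 0.542).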
